A study of Mus musculus with 11 samples.

Results

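The 10 genes described here encode regulators of cell survival and death, and their mRNA was measured in mouse macrophages given lipopolysaccharide (LPS), alone or with prostaglandin E (PGE). The genes were Bcl2l11, Mcl1, Pmaip1, Fas, Ripk3, Casp8, Cflar, Birc3, Traf1 and Ier3, chosen by symbol with earlier results of these data known. All 10 were measured among the 18755 genes that the arrays resolved, each by the probe set with the highest mean where a gene had several. The cells were bone marrow macrophages of wild type C57Bl/6 mice, expanded with macrophage colony-stimulating factor, so every group shares that factor and that genotype. There were 4 arrays of untreated cells, 3 of cells given 100 ng/ml LPS for 1 hour, and 4 of cells given the same LPS together with 10 µM PGE for 1 hour. No group analysed here received PGE alone, so the effect of PGE was measured only in the presence of LPS. LPS is a bacterial cell wall component sensed by Toll-like receptor signalling, while PGE is an immune-modulating lipid that acts through EP receptors, of which EP2 and EP4 couple to cyclic AMP. Which prostaglandin E was given is not stated. Nor is it stated whether replicates came from separate mice or cultures, so the p-values measure only the spread between these samples.

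Cell death is controlled at several tiers. At the mitochondrion, BH3-only proteins such as BIM (gene Bcl2l11) and NOXA (Pmaip1) bind and block anti-apoptotic proteins such as MCL1. At the cell surface, death receptors such as FAS recruit caspase-8 (Casp8), which c-FLIP (Cflar), a caspase-8 relative without protease activity, holds in check; where caspase-8 is blocked, the kinase RIPK3 (Ripk3) can start necroptosis. In macrophages, Toll-like receptor signalling through NF-kB is known to raise survival genes, among them the ubiquitin ligase cIAP2 (Birc3), its adaptor partner TRAF1 (Traf1) and the early response protein IER3, also called IEX-1.

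Promoter sequence is shown for Ier3 and Fas, the members with the largest differences, in opposite directions, when PGE was added to LPS. The bases are the 250 before the start in RefSeq's mouse annotation (build GRCm38.p6), plus strand, at chr17:35821463-35821712 for Ier3 and chr19:34290409-34290658 for Fas. Capitals mark the κB consensus in Ier3, read on the opposite strand, and in Fas the AP-1 motif TGANTCA followed by the STAT motif TTCNNNGAA.
Ier3: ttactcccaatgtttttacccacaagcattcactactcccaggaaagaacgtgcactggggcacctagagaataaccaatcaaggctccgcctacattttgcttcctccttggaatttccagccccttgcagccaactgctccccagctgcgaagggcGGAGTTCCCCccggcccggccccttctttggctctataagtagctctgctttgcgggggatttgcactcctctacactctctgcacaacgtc
Fas: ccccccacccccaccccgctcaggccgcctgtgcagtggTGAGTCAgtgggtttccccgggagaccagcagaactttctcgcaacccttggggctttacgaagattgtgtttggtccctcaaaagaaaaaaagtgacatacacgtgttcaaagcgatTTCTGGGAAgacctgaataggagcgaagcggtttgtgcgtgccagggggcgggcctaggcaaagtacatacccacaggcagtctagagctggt
RefSeq promoter windows, from 250 bases before to 50 after a start, were used for 9 of the 10 members (10 windows, since Bcl2l11 had 2). No window of Pmaip1 was used. Both strands were searched for the κB consensus, the cyclic AMP response element TGACGTCA and its shorter form TGACG (which it contains). They were also searched for TGANTCA as well as TTCNNNGAA, for the CArG box, and for TATAAA. No matches of different motifs overlapped in these windows. The κB consensus was matched in Ier3 alone among these windows, and in 8.46% of 32851 mouse windows of the same length. The AP-1 and STAT motifs were matched in Fas alone of these windows, and in 7.81% and 8.3% of all windows. The full element TGACGTCA was in none of the 10 windows and in 1.79% of all, TGACG was in the Mcl1 window (20.8% of all), TATAAA in that of Cflar (13.6% of all), and the CArG box in none (1.63% of all). These are matches of letters near a start and say nothing of binding.

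Levels are on a log2 scale, where 1 unit is a doubling. They compare a gene with itself across arrays, not 1 gene with another, so a place above or below the median gene is only a rough guide. Across genes, Pearson's r was 0.996 to 0.998 within a group and 0.98 to 0.993 between groups. All 10 measured macrophage markers lay above the median gene (5.92), and their summed log2 level was 113.8 to 114.7 in untreated arrays, 115.5 to 115.9 after LPS and 115.4 to 116 after LPS plus PGE. Without Cd14, which rose by 1.64 ± 0.06 with LPS and 2.22 ± 0.06 with LPS plus PGE, the sums were 103.2 to 104.3, 103.3 to 103.7 and 102.7 to 103.3. Of 29 markers of neutrophils, dendritic, B, T and NK, and stromal cells, 4 lay above the median gene: Itgax (10.6), Cd4 (7.25), Cd79b (6.57) and S100a8 (6.19). The summed level of the 29 was 136.5 to 140, 136.8 to 140.1 and 137.6 to 140.8 in the same order. Of these 29, none was higher and 1 lower in LPS than untreated. In LPS plus PGE 3 were higher and 1 lower than untreated, and 4 were higher and 1 lower than LPS. The shares of all genes called higher and lower were 6.55% and 6.69%, 13.8% and 17.9%, and 11.9% and 12.9% in these comparisons. The part of the 29 markers in the results was not tested. In both comparisons of LPS plus PGE, genes below the median level shifted by a median of 0.14 and genes above it by -0.11. In bulk RNA, fewer cells of a type and less RNA per cell cannot be told apart.

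After an hour of LPS, 8 of the 10 regulators were higher than in untreated cells and none was lower. The rises were on both sides of the balance as grouped here: the pro-death genes Pmaip1, Bcl2l11 and Fas, and the survival genes Traf1, Ier3, Cflar, Birc3 and Mcl1. The arrays measured mRNA, not cell death or survival. Ripk3 and Casp8 did not pass. With PGE added, 7 were higher than in untreated cells, and Fas, at 6.64, no longer passed. Set directly against LPS alone, LPS plus PGE had higher Ier3 and Birc3 and lower Fas and Pmaip1. The differences are log2 fold changes ± SE from limma, fitted to all 11 arrays and called at a Benjamini-Hochberg adjusted p under 0.05. The same untreated arrays serve both comparisons with untreated, and the same LPS arrays serve the first and the third.

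For scale, 6.55% of all 18755 genes were called higher and 6.69% lower in LPS than untreated, against 8 and 0 of the 10. For LPS plus PGE against untreated 13.8% were higher and 17.9% lower, against 7 and 0 of the 10. For LPS plus PGE against LPS 11.9% were higher and 12.9% lower, against 2 of the 10 each way, so these last counts lie nearer to the background. The 10 were chosen with earlier results of these data known, so their counts are not independent evidence. The median difference of the 10 was 1.13, 1.08 and -0.06 in the 3 comparisons, and that of all genes -0.015, 0.017 and -0.005. Arrays of the 2 groups did not overlap for the same 8 regulators in the first comparison, for 8 in the second (the 7 called, higher, and Casp8, lower) and for 4 in the third (2 each way). The Casp8 groups were set apart by a gap that vanishes at 2 decimals. Of all 18755 genes, the arrays did not overlap for 10.5% higher and 12.6% lower in the first comparison. These shares were 13.7% and 21.4% in the second, and 15.5% and 18.3% in the third. The balance of calls over all genes depended on scaling and, apart from scaling, on whether dimmer genes were kept. It was 1229 higher and 1254 lower in LPS, but 2747 and 613 with equal array medians, which moved the median of all genes from -0.015 to 0.1. It was 2587 and 3359 in LPS plus PGE against untreated, but 2596 and 2206 after quantile, 2129 and 1788 after cyclic loess normalization and 4499 and 2119 with equal medians; with genes below the median level left out it was 999 and 3720. It was 2225 and 2416 against LPS, but 1804 and 3004 with equal medians, and 503 and 2842 with the dimmer genes left out.

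**Figure D1:**
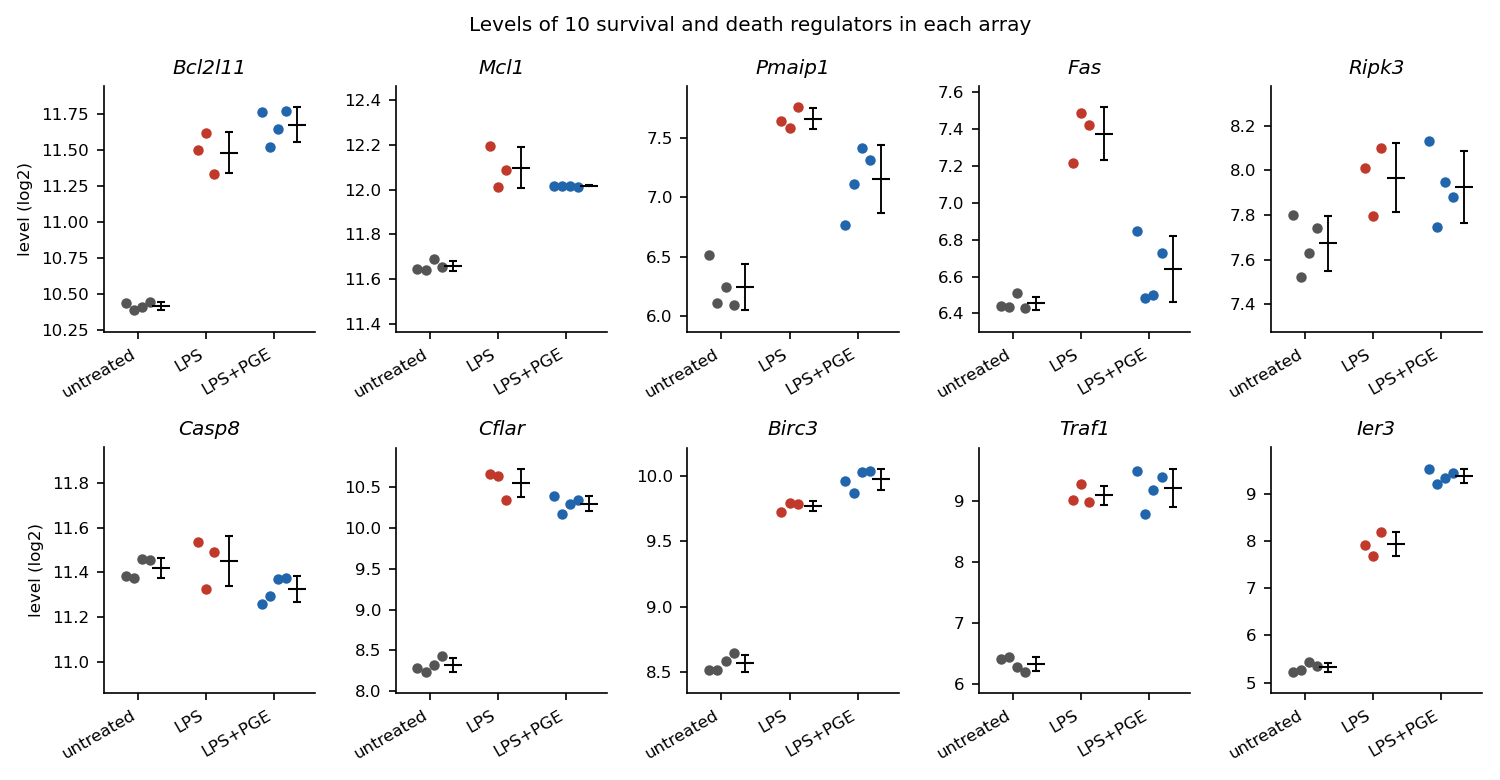
Log2 level (vertical axes, each panel on its own scale) of the 10 regulators in each array, for 4 untreated (grey), 3 LPS (red) and 4 LPS plus PGE arrays (blue). Points are arrays, and the bar beside them is the mean with the SD. Fas in LPS plus PGE arrays (6.48 to 6.85) lies near its untreated range (6.43 to 6.51), and Ier3 climbs in 2 steps.

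Of the BCL2 family members, Bcl2l11, whose BH3-only product BIM is a strong trigger of apoptosis, was at 10.43, 10.38, 10.41 and 10.45 in untreated arrays. It was at 11.50, 11.61 and 11.33 in LPS and at 11.77, 11.52, 11.64 and 11.77 in LPS plus PGE arrays. Every treated array lay above every untreated one, while the treated groups overlapped. Bcl2l11 rose by 1.06 ± 0.08 with LPS (2.09-fold, limma adjusted p = 1.93e-06) and by 1.26 ± 0.08 with LPS plus PGE (2.39-fold, limma adjusted p = 1.12e-07). Between the treated groups it differed by 0.19 (95% interval 0.02 to 0.37, limma adjusted p = 0.0996), which did not pass; with a trended and robust variance it did (limma adjusted p = 0.0327).

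Pmaip1 encodes the BH3-only protein NOXA, which binds MCL1. It was at 6.51, 6.11, 6.25 and 6.09 in untreated, 7.64, 7.59 and 7.76 in LPS, and 6.77, 7.11, 7.41 and 7.31 in LPS plus PGE arrays. The 3 groups did not overlap, and LPS plus PGE lay between the others. Pmaip1 rose 2.67-fold with LPS (1.42 ± 0.14, limma adjusted p = 2.51e-05) and 1.88-fold with LPS plus PGE (0.91 ± 0.13, limma adjusted p = 0.000293). It was lower in LPS plus PGE than in LPS by -0.51 ± 0.14 (limma adjusted p = 0.0248). That call ended after quantile (adjusted p = 0.0719) or cyclic loess normalization (0.0876), and without LPS replicate 1 (0.056), LPS replicate 3 (0.0837) or LPS plus PGE replicate 2 (0.0517), with limma adjusted p-values from 0.0093 to 0.0876 over the 20 alternatives.

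Mcl1, the short-lived anti-apoptotic partner of both, was at 11.64, 11.64, 11.69 and 11.66 in untreated and at 12.19, 12.01 and 12.09 in LPS arrays. The 4 LPS plus PGE arrays were all between 12.01 and 12.02. Both treated groups lay above untreated and overlapped each other. The rises were smaller than those of the pair of BH3-only genes: 0.44 ± 0.06 with LPS (1.36-fold, limma adjusted p = 0.000202) and 0.36 ± 0.05 with LPS plus PGE (1.28-fold, limma adjusted p = 0.000287). Between treated groups the difference was -0.08 (95% interval -0.21 to 0.04, limma adjusted p = 0.308).

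In the death receptor pathway, Fas was at 6.44, 6.43, 6.51 and 6.43 in untreated and at 7.22, 7.49 and 7.42 in LPS arrays. The LPS plus PGE arrays read 6.85, 6.48, 6.50 and 6.73. The LPS arrays stood above all others, and LPS plus PGE overlapped untreated. Fas rose by 0.92 ± 0.10 with LPS (1.9-fold, limma adjusted p = 3.23e-05). It was lower by -0.74 ± 0.10 in LPS plus PGE than in LPS (1.67-fold, limma adjusted p = 0.000467), and this call held in all 20 alternatives (-0.82 to -0.61, limma adjusted p from 4.6e-05 to 0.00382). Between LPS plus PGE and untreated the difference was 0.19 ± 0.09 (95% interval -0.01 to 0.38, limma adjusted p = 0.13). It passed after quantile (0.37, adjusted p = 0.0108) and cyclic loess normalization (0.31, 0.0291) and with equal array medians (0.27, 0.0361), among limma adjusted p-values from 0.0108 to 0.328.

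Cflar, the gene of the caspase-8 inhibitor c-FLIP, had the largest change of this pathway's 4 members. It was at 8.28, 8.24, 8.32 and 8.43 in untreated, 10.66, 10.64 and 10.35 in LPS, and 10.39, 10.18, 10.29 and 10.34 in LPS plus PGE arrays. Treated arrays lay far above untreated ones, and the treated groups overlapped through LPS replicate 3. The rise was 2.23 ± 0.09 with LPS (4.69-fold, limma adjusted p = 3.22e-09) and 1.98 ± 0.08 with LPS plus PGE (3.95-fold, limma adjusted p = 3.14e-09). Between treated groups Cflar differed by -0.25 (95% interval -0.44 to -0.06, limma adjusted p = 0.057). Among 5 settings in which that difference passed were the fits without LPS replicate 3 (-0.35, adjusted p = 0.0164), with equal medians (adjusted p = 0.0374), with a trended and robust variance (0.0183) and with dim genes left out (0.0321); limma adjusted p-values ran from 0.0164 to 0.298.

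Casp8, the initiator caspase, ran from 11.37 to 11.46 in untreated, 11.32 to 11.53 in LPS and 11.26 to 11.37 in LPS plus PGE arrays. It passed no comparison, and the 95% intervals bound the differences to -0.11 to 0.18 for LPS, -0.23 to 0.04 for LPS plus PGE and -0.27 to 0.02 between them (limma adjusted p = 0.815, 0.252 and 0.175).

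Ripk3, the necroptosis kinase, ran from 7.52 to 7.80 in untreated, 7.80 to 8.10 in LPS and 7.75 to 8.13 in LPS plus PGE arrays. The groups overlapped. Its differences from untreated were 0.29 ± 0.10 with LPS (limma adjusted p = 0.0888) and 0.25 ± 0.10 with LPS plus PGE (limma adjusted p = 0.0642). The first passed under 4 of 20 alternatives (limma adjusted p from 0.018 to 0.258) and the second under 7 (0.00744 to 0.172), among them equal array medians for both and leaving out LPS plus PGE replicate 2 for the second (0.0362). Between treated groups the difference was -0.04 (95% interval -0.27 to 0.19, limma adjusted p = 0.793).

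Of the NF-kB survival genes, Ier3 had the largest change among the 10. This early response gene was at 5.23, 5.26, 5.45 and 5.36 in untreated, 7.91, 7.69 and 8.20 in LPS, and 9.53, 9.21, 9.33 and 9.44 in LPS plus PGE arrays. The 3 groups stood apart. Ier3 rose by 2.61 ± 0.12 with LPS (6.1-fold, limma adjusted p = 1.02e-08) and by 4.05 ± 0.11 with LPS plus PGE (16.6-fold, limma adjusted p = 3.79e-11). LPS plus PGE exceeded LPS by 1.44 ± 0.12 (2.72-fold, limma adjusted p = 8.86e-06), which ranked 51 of 18755 genes by size. The PGE difference was 1.32 to 1.58 over the 20 alternatives, and all passed (limma adjusted p from 8.91e-09 to 0.000204).

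Traf1, an adaptor that joins TNF receptors to the cIAP ligases, was at 6.41, 6.44, 6.28 and 6.19 in untreated and at 9.02, 9.28 and 8.99 in LPS arrays. With PGE added it was at 9.50, 8.79, 9.19 and 9.40. It rose strongly in both treated groups, which overlapped: by 2.77 ± 0.15 with LPS (6.81-fold, limma adjusted p = 6.07e-08) and 2.89 ± 0.14 with LPS plus PGE (7.42-fold, limma adjusted p = 1.21e-08). Between them the difference was 0.12 (95% interval -0.20 to 0.44, limma adjusted p = 0.554).

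Birc3, the gene of the ubiquitin ligase cIAP2, was at 8.51, 8.51, 8.59 and 8.65 in untreated, 9.72, 9.79 and 9.79 in LPS, and 9.96, 9.86, 10.03 and 10.04 in LPS plus PGE arrays. The groups did not overlap. Birc3 rose 2.3-fold with LPS (1.20 ± 0.06, limma adjusted p = 6.07e-08) and 2.65-fold with LPS plus PGE (1.41 ± 0.06, limma adjusted p = 3.82e-09). LPS plus PGE exceeded LPS by 0.21 ± 0.06 (limma adjusted p = 0.0355), a small difference that stayed past the threshold in 10 of 20 alternatives (limma adjusted p from 0.0102 to 0.0951). Among the settings that ended it were equal array medians (0.0789), a fit of all probe sets (0.0516), a fit of the treated groups alone (0.0648), and fits without LPS replicate 1 (0.0951), 2 (0.0579) or 3 (0.069) or LPS plus PGE replicate 1 (0.0649), 3 (0.0851) or 4 (0.0784).

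**Figure D2:**
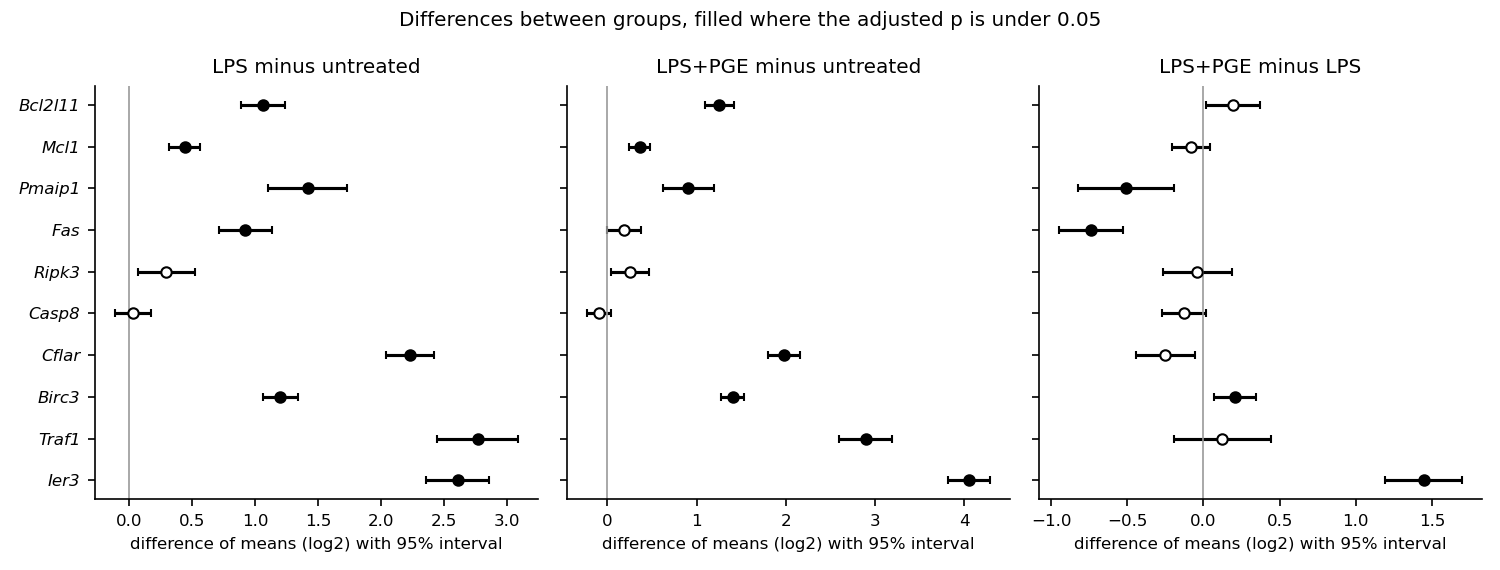
Differences of group means (log2, horizontal axes, each panel on its own scale) for the 10 regulators with 95% intervals from limma; filled points passed an adjusted p of 0.05. LPS against untreated has 8 filled points, all to the right of 0, while LPS plus PGE against LPS has 2 on each side.

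Ordered by group mean, untreated was lowest for all 8 genes that rose with LPS. For Ier3 and Birc3 the order was untreated, LPS, LPS plus PGE, with every step past the threshold. For Pmaip1 the order was untreated, LPS plus PGE, LPS, again with every step past it. Between the treated groups, the call of Ier3 held in all 20 alternatives, that of Birc3 in 10 and that of Pmaip1 in 15. For Fas, LPS was highest, and the difference between untreated and LPS plus PGE did not pass. For Bcl2l11, Mcl1, Cflar and Traf1 the difference between the treated groups did not pass the adjusted threshold, although the unadjusted 95% intervals of Bcl2l11 and Cflar exclude 0.

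**Figure D3:**
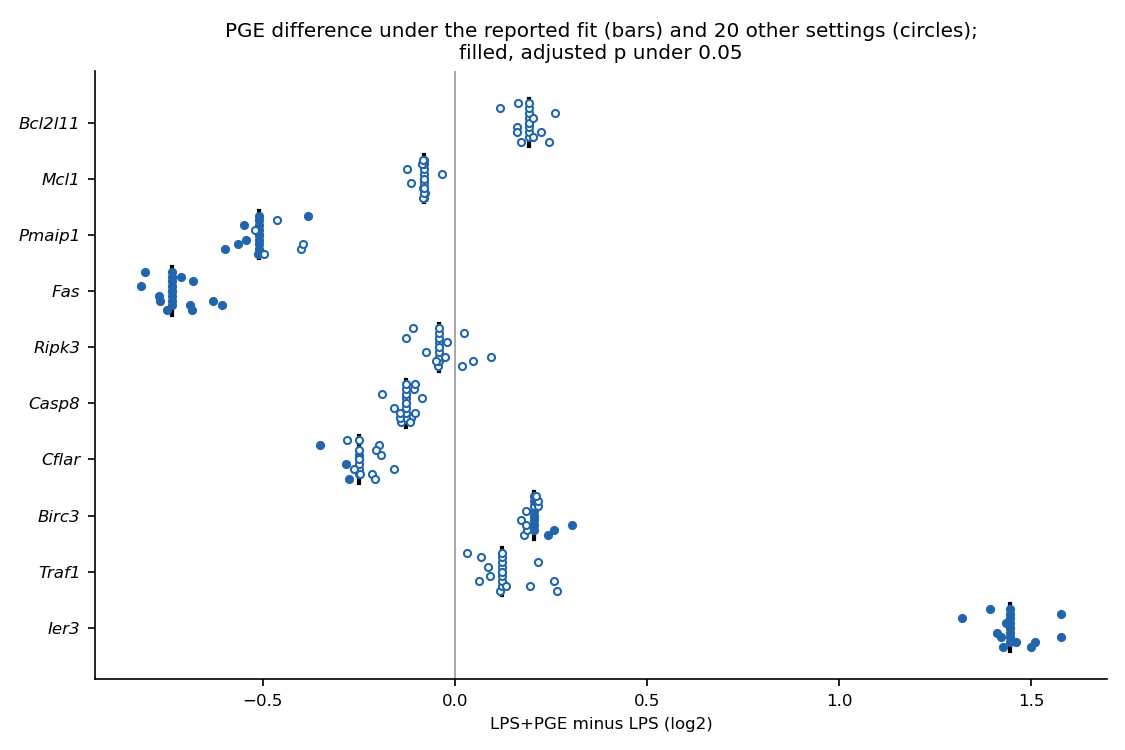
Difference of LPS plus PGE from LPS (log2) for each regulator, with the reported value as a bar and 20 other settings as circles, filled where the limma adjusted p is under 0.05. Every circle of Ier3 (1.32 to 1.58) and Fas (-0.82 to -0.61) is filled, while those of Pmaip1, Birc3 and Cflar are mixed.

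As a background for the list counts that follow, 6.55% of all genes were called higher and 6.69% lower in LPS than untreated. The shares were 13.8% and 17.9% for LPS plus PGE against untreated, and 11.9% and 12.9% against LPS. List counts near these shares are not results about the lists. Among the wider BCL2 family, of 13 measured genes 4 were higher and 3 lower in LPS than untreated, with a median of 0.01 beside -0.015 for all genes. The rises were Bcl2l11, Pmaip1, Mcl1 and the anti-apoptotic gene Bcl2l1, named after its value was seen (0.19 ± 0.06, limma adjusted p = 0.0459, but 0.0573 after quantile normalization and not past the threshold without 9 of the 11 arrays in turn). The falls were those of other pro-apoptotic genes: the BH3-only genes Bmf (-1.16 ± 0.14, limma adjusted p = 8.64e-05), Bbc3, which encodes PUMA (-0.40 ± 0.08, limma adjusted p = 0.00696), and Bid (-0.34 ± 0.07, limma adjusted p = 0.0105, but 0.0805 with equal array medians). BH3-only genes thus moved in both directions. With LPS plus PGE, set against untreated, 6 were higher and 5 lower (4 and 4 after cyclic loess normalization, median -0.07 and then 0.07), with Bmf at -1.48 ± 0.13, Bid at -0.89 ± 0.07 and Bbc3 at -0.86 ± 0.08 (limma adjusted p at most 4.76e-06). The rises outside the 10 regulators (0.31 to 0.33) were in genes below the median level. Genes below it shifted by a median of 0.14 in this comparison. Against LPS alone, Bid (-0.55 ± 0.07), Bbc3 (-0.46 ± 0.08), Pmaip1, Bak1 (-0.30 ± 0.08) and Bcl2l1 (-0.26 ± 0.06) were lower and Hrk (0.59 ± 0.09) higher (limma adjusted p no higher than 0.0248), and the median was -0.2. Hrk was at 4.75 in LPS and 5.34 in LPS plus PGE, below the median gene (5.92). After quantile or cyclic loess normalization 2 genes were called lower, Bid and Bbc3, and Bak1 also lost its call without 2 of the 11 arrays in turn. Bak1 and Bcl2l1 were named after their values were seen. The median over all genes above the median level was -0.11 in both comparisons of LPS plus PGE. Above that level lay 10 of these 13 genes. The same held for 10 of 13 death receptor, 9 of 10 caspase and 8 of 8 inhibitor of apoptosis genes. It held for 10 of 10 necroptosis and 12 of 13 TRAF list genes. With dimmer genes left out, calls over all genes against LPS were 503 higher and 2842 lower. Whether falls in these lists go beyond that shift was not tested.

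Of 13 death receptor, ligand and adaptor genes, 4 were higher and none lower in LPS than untreated (median 0.00): Fas, Cflar, the ligand gene Tnf (4.51 ± 0.07, limma adjusted p = 1.95e-12) and the TRAIL receptor gene Tnfrsf10b (0.56 ± 0.09, limma adjusted p = 0.00151). Against untreated, LPS plus PGE had 5 higher and 1 lower (median 0.16), with Tnf at 4.18 ± 0.07, Tnfrsf10b at 0.43 ± 0.09 and the adaptor gene Fadd at -0.51 ± 0.08. LPS plus PGE against LPS gave 1 rise, Tnfrsf25 (0.37 ± 0.08, at a level of 4.24, limma adjusted p = 0.00809, but 0.0685 after quantile normalization), and 3 falls, Fas, Fadd (-0.43 ± 0.08, limma adjusted p = 0.0039) and Tnf (-0.33 ± 0.07, limma adjusted p = 0.00924), with a median of -0.13. FADD is the adaptor that couples FAS to caspase-8. Beside these counts against LPS, 11.9% of all genes were higher and 12.9% lower.

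Of 10 necroptosis genes, 4 were higher and none lower in LPS than untreated (median 0.20): Cflar, the ubiquitin editor Tnfaip3 (4.30 ± 0.08, limma adjusted p = 7.51e-12), the Toll-like receptor adaptor Ticam1 (0.72 ± 0.08, limma adjusted p = 4.15e-05) and the kinase gene Tbk1 (0.22 ± 0.06, limma adjusted p = 0.0318). Tbk1 lost its call without 5 of the 11 arrays, each left out in turn. In LPS plus PGE against untreated 3 were higher and 3 lower (median 0.02; 4 and 2 after quantile, 4 and 1 after cyclic loess normalization), with Tnfaip3 at 4.33 ± 0.08, Fadd as above and Ticam1 at -0.28 ± 0.07, whose call ended after cyclic loess normalization (adjusted p = 0.212). Against LPS, Ticam1 was lower by -1 ± 0.08 (limma adjusted p = 7.3e-06), with Fadd and Tbk1 (-0.23 ± 0.06, limma adjusted p = 0.0199, but 0.0893 after quantile normalization), and none was higher (1 after quantile or cyclic loess normalization; median -0.14).

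Of 10 caspase and apoptosome genes, Casp2 (-0.80 ± 0.08, limma adjusted p = 1.27e-05) and Casp9 (-0.40 ± 0.08, limma adjusted p = 0.00561) were lower and Apaf1, the scaffold that activates caspase-9, was higher (0.28 ± 0.06, limma adjusted p = 0.00658) in LPS than untreated (median -0.08). With PGE added, 1 was higher than untreated and 5 lower (3 lower after cyclic loess normalization; median -0.20), with Casp2 at -0.91 ± 0.07, the nuclease gene Dffb at -0.91 ± 0.19 and Casp9 at -0.68 ± 0.08. Against LPS 1 was higher, Apaf1, and 2 were lower, Casp9 and Dffa (median -0.12); none of the falls passed after quantile normalization, and Apaf1 (0.20 ± 0.06, limma adjusted p = 0.0311) did not pass with equal array medians (0.0694) or without 5 of the 11 arrays in turn. Of 8 inhibitor of apoptosis genes, Birc3 and its close relative Birc2 (0.26 ± 0.07, limma adjusted p = 0.0384) were higher and none lower in LPS (median 0.02); Birc2 lost its call without 8 of the 11 arrays in turn. In LPS plus PGE against untreated 2 were higher and 3 lower (1 lower after cyclic loess normalization), with a median of -0.18. Outside the 10 regulators the largest were Naip2 (-0.34 ± 0.06), Naip6 (-0.25 ± 0.06) and Birc2 (0.25 ± 0.07). The Naip6 call ended after cyclic loess normalization (limma adjusted p = 0.195), and that of Birc2 without 1 of the 11 arrays. Against LPS Birc3 was higher and Naip2 lower (-0.30 ± 0.06, limma adjusted p = 0.00639), with a median of -0.14. These counts of 1 each way among 8 genes lie near the all-gene shares of 11.9% higher and 12.9% lower.

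The list of TRAF adaptors and NF-kB survival genes, which holds Traf1, Ier3 and Birc3, had 10 of 13 higher and none lower in LPS than untreated, with a median of 1.2. Outside the 10 regulators the largest were Nfkbia, the NF-kB inhibitor (3.13 ± 0.06, limma adjusted p = 7.79e-12), the stress gene Gadd45b (2.30 ± 0.08, limma adjusted p = 9.76e-10) and the NF-kB subunit Relb (1.46 ± 0.08, limma adjusted p = 8.16e-08). Adding PGE left 10 higher than untreated and none lower (median 1.40), with these 3 at 3.17 ± 0.06, 2.52 ± 0.07 and 1.44 ± 0.07. Against LPS, Ier3 and Birc3 were higher and Traf6 was lower by -0.18 ± 0.05 (limma adjusted p = 0.0367, but 0.147 after quantile normalization), with a median of 0.04. Among 13 genes these counts lie near the all-gene shares of 11.9% higher and 12.9% lower. The lists were drawn up with earlier results of these arrays known, so their directions are not independent evidence.

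**Figure D4:**
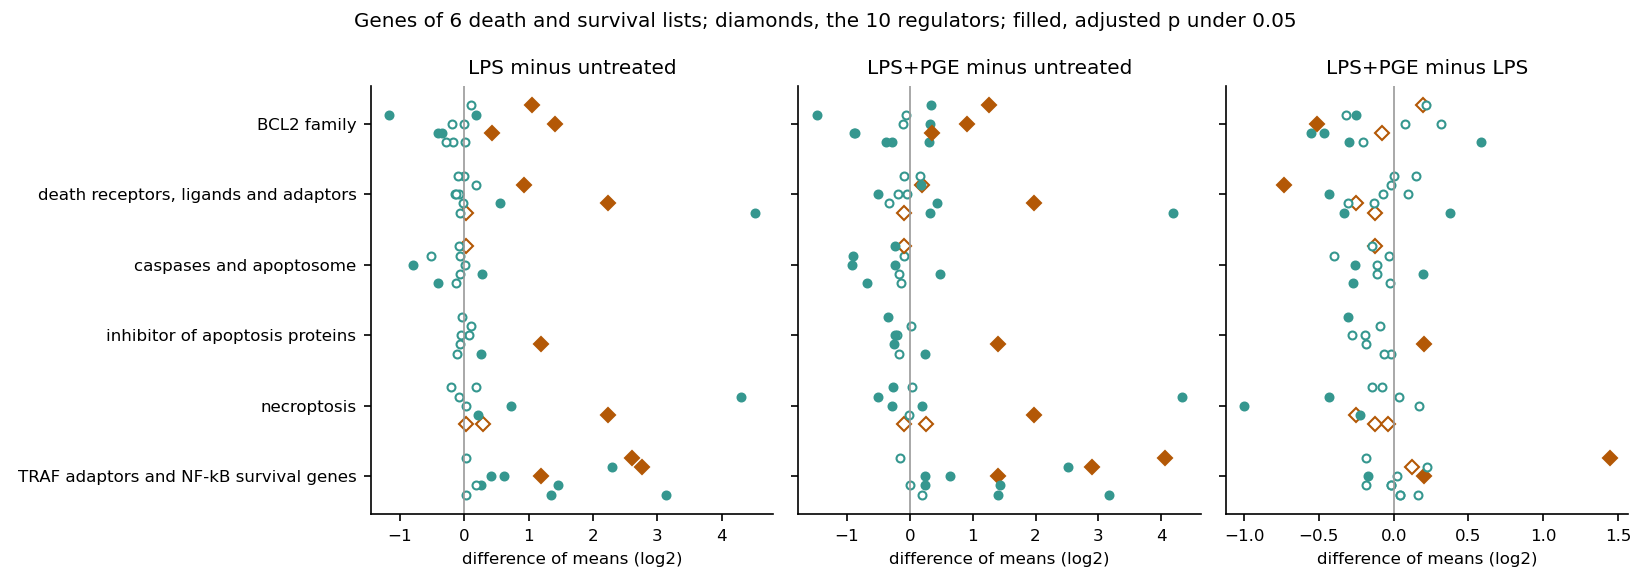
Differences of group means (log2, horizontal axes, each panel on its own scale) for the measured genes of 6 lists (vertical axis, with small vertical offsets for legibility). Diamonds are the 10 regulators, circles the other genes, and filled symbols passed a limma adjusted p of 0.05; the TRAF and NF-kB list has 10 filled symbols to the right of 0 in the LPS panel.

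The genes with the most similar pattern were sought for the 6 regulators whose group means spanned at least 1, among 597 genes that spanned as much. Over the 11 arrays Ier3 was closest to Nr4a1 (Pearson r = 0.9976) and Sele (0.9955), and Birc3 to Nfkbie (0.9971) and Gem (0.9968). Bcl2l11 was closest to Gtf2b (0.9968) and Pvr (0.9953), Traf1 to Ccl5 (0.9974) and Clcf1 (0.9971), and Cflar to Rnf19b (0.9981) and Rasgef1b (0.9974). Pmaip1 was closest to Irf1 (0.9599) and Zbtb10 (0.9582). Irf1 shared the order of Pmaip1, with group means of 9.38 (untreated), 11.96 (LPS) and 10.98 (LPS plus PGE). Nr4a1 shared that of Ier3, with 6.73, 10.61 and 12.69. Both genes were chosen by their correlation over these arrays, so the shared order is not a further result. All points share the same 11 arrays and 3 groups, so these values describe likeness of pattern in these arrays.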

How the data were processed

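RNA of 11 macrophage samples was measured on Affymetrix mouse gene ST arrays. The authors left out 1 further LPS array for quality, per the series' design text. The deposited values are on a log2 scale, inferred from RMA, named in the submitters' processing notes with Affymetrix Power Tools, Partek and R 2.13.1, and from their range (1.21 to 13.81); no source used here names their genome build. RMA normalization assumes most genes are unchanged. The number of arrays limits the precision.

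Of 35309 probe sets 21143 carried 1 gene symbol, which gave 18755 genes, the highest-mean probe set standing for a gene with several (Cflar had 3). A group-means model over all arrays was fitted with limma 3.58.1 in R 4.3.3 (8 residual and 3.77 prior degrees of freedom), two-sided, with Benjamini-Hochberg adjustment over all genes. The fit was tested on simulated data with independent noise. That test held neither the shift by level nor the likeness of same-numbered arrays, so it does not cover them. Figures used matplotlib 3.10.9 in Python 3.11.15. The text names the 10 regulators, in each of 6 lists the 3 other called genes with the largest change, and for each regulator spanning at least 1 the 2 genes of highest correlation, leaving out predicted and small RNA genes. Regulators and lists were chosen with earlier results of these data known. Listed genes not among the 18755 were not analysed here. The 20 alternatives were 3 other normalizations, another variance model, a filter on dim genes, 2 other uses of probe sets, fits of 2 groups alone, a block on replicate number, and 11 fits without 1 array each.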

Additional observations from a re-analysis of the deposited data

Results flagged for a closer look

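Among the 20 sets of 4 arrays examined (the 10 regulators in untreated and in LPS plus PGE cells), 1 held an array far from the rest by Dixon's criterion. Fas in untreated replicate 3 was 6.51, while the other 3 untreated arrays lay between 6.43 and 6.44. Chance alone marks about 1 in 20 such sets. The 3 LPS arrays are too few for this check.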

How the results depend on the processing

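Of 600 recomputed differences (30 differences of the 10 regulators, 20 alternatives each), 565 kept their side of the threshold, 15 lost a call, 20 gained one and none that was called changed direction. In LPS against untreated 8 or 9 regulators were called under every alternative, and in LPS plus PGE against untreated 7 to 9. In LPS plus PGE against LPS 2 to 6 were called, and the 4 calls became 2 to 4 with 1 array left out, the lowest without LPS replicate 1, which left Ier3 and Fas. Over all genes, the calls of that comparison fell from 4641 to 2358 after quantile and 2123 after cyclic loess normalization, and to 2945 without LPS replicate 3 (2945 to 4455 over the arrays left out); those of LPS plus PGE against untreated fell from 5946 to 3917 after cyclic loess normalization. The cause was not tested. No label says that a replicate number marks a shared source. Deviations of same-numbered arrays from their group means correlated at -0.02 to 0.207 (7 of 10 pairs over 0.1), against -0.138 to 0.095 for different numbers. All 11 arrays correlated best with an array of their own number, a hint from the data and not the design. With the replicate block 4698 genes were called between the treated groups; Birc3 did not pass (0.18, adjusted p = 0.0549), Cflar did (-0.28, 0.0497), and Ripk3 passed against untreated in both treated groups (0.30, adjusted p = 0.0316, and 0.25, 0.0201).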

Other observations

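The 3 probe sets annotated to Cflar gave like changes. With LPS they rose by 2.23 ± 0.09 (the one reported), 1.96 ± 0.09 and 2.03 ± 0.10, and LPS plus PGE against LPS gave -0.25, -0.22 and -0.12, none of which passed when all probe sets were tested together (limma adjusted p = 0.0852, 0.102 and 0.415).

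Within the LPS plus PGE group replicate 2 was the lowest array for 7 of the 10 regulators and replicate 1 the highest for 5. Of the 239 genes called and at least 2-fold higher than untreated in both treated groups, replicate 2 was the lowest array for 63.2% and replicate 1 the highest for 56.9%, against 21.8% and 25.2% of all 18755 genes. These shares are a description of 4 arrays, and their cause was not tested.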
